A study of Homo sapiens with 9 samples.

Results

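Knockdown of GAR1 was compared with a control siRNA by RNA-seq of nuclei from U2OS, an osteosarcoma cell line of human origin. The 3 siGAR1 and the 3 siControl libraries were chosen by their siRNA label and make up 6 of the 9 samples of the series. The other 3 libraries, siDyskerin, share the fit and are quoted beside single genes. All cells were transfected with RNAiMAX and 15 nM of siRNA and collected after 48 h, with 3 biological replicates per group. Nuclei were isolated, RNA was extracted with Trizol and depleted of rRNA with RiboCop, and CORALL Total RNA-seq libraries were made. According to the study's oligonucleotide list, the control siRNA came from Qiagen, whereas the siRNAs against GAR1 and dyskerin were Dharmacon products. Within this contrast loss of GAR1 cannot be told apart from an effect of either siRNA product. A change seen in both knockdowns cannot be told apart from an effect of the control siRNA or of the supplier. Each group is 1 cell line at a single time, and only the nuclear fraction was sequenced. In bulk RNA, fewer cells of a state and less RNA per cell cannot be told apart.

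GAR1 is a core protein of the H/ACA ribonucleoproteins, together with the pseudouridine synthase dyskerin (encoded by DKC1), NHP2 and NOP10. A guide RNA (a SNORA or, in Cajal bodies, a SCARNA) base-pairs with a target RNA and places 1 uridine in the active site of dyskerin, which turns it into pseudouridine. GAR1 joins late, replaces the assembly factor NAF1, binds dyskerin without touching the guide RNA, and helps load and release the target. H/ACA particles modify ribosomal and spliceosomal RNA, and the telomerase RNA carries the same fold.

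Reads per library summed to between 55766290 and 90698675 over the 6 libraries, and values below are normalized read counts, scaled to the mean library, unless a log2 difference or raw reads are named. A gene passed at an adjusted p under 0.01 over 18444 genes (quasi-likelihood test of edgeR). The identity of the cells was checked on marker genes. The mesenchymal genes VIM, FN1, SPARC, CDH2, RUNX2 and COL1A1 had at least 797 raw reads in each of the 6 libraries, whereas COL1A2 had at most 2. Of the epithelial genes, KRT8 and KRT18 had at least 13754 raw reads per library, while KRT19 had at most 7, ESR1 at most 21, CDX2 at most 23, GATA3 at most 73, EPCAM at most 171 and CDH1 at most 298. Among these libraries 2 stood apart from the rest of their group. The third principal component (13.7% of the variance of the 500 most variable genes) placed siGAR1 replicate 3 at 23.2 and the other 8 libraries between -5.91 and 1.98, and siControl replicate 1 differed from replicates 2 and 3 along GC content. Where leaving out either library moved the count of a list by more than 1.5-fold, that count stands beside the list.

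The silenced gene was lowered in every siGAR1 library. GAR1 (ENSG00000109534.17; GRCh38 chromosome 4, 109815510 to 109824740) had 598, 594 and 664 normalized counts in siControl replicates 1, 2 and 3, 92.3, 83.9 and 115 in the siGAR1 libraries, and 714, 718 and 710 in siDyskerin. The siGAR1 libraries lay far below both other groups, and replicate 3 kept the most GAR1 RNA. GAR1 fell by 2.68 on the log2 scale (SE 0.12, adjusted p = 6.1e-08, edgeR), 6.41-fold. DKC1, which encodes dyskerin, had 20937, 22716 and 20777 counts in siControl and 26060, 24976 and 22628 in siGAR1, so that the groups overlapped at siGAR1 replicate 3. Its log2 difference was 0.19 (SE 0.06, adjusted p = 0.080), and 0.24 without that replicate (adjusted p = 0.029). NHP2 (log2 difference -0.17 ± 0.08 SE), NOP10 (0.07 ± 0.08) and the assembly factors NAF1, SHQ1, RUVBL1 and RUVBL2 did not pass, so GAR1 was the single member to pass of 8 H/ACA proteins and assembly factors. The share of passing genes over all genes was 1.63% raised and 1.79% lowered.

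**Figure D1:**
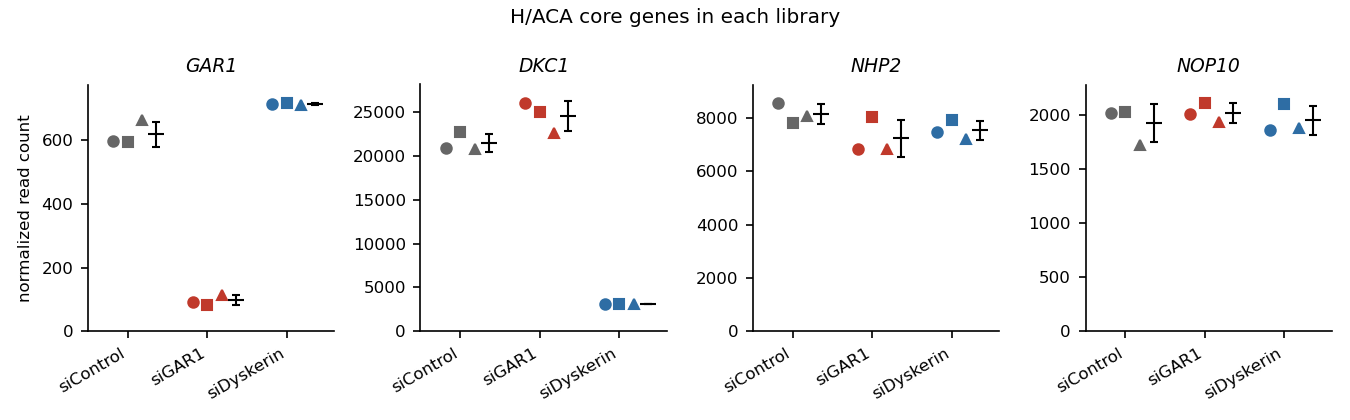
Normalized read counts of GAR1, DKC1, NHP2 and NOP10 in each of the 9 libraries, with the vertical axis starting at 0. Circles, squares and triangles are replicates 1, 2 and 3, and the bars give the mean ± SD of the 3 libraries of a group. GAR1 lay between 83.9 and 115 in the siGAR1 libraries and at 594 or more in all others, while the log2 differences between siGAR1 and siControl were 0.19 for DKC1, -0.17 for NHP2 and 0.07 for NOP10.

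Most of what passed was small. After GAR1 knockdown 300 genes were raised and 330 lowered, of which 266 raised (1.44% of all genes) and 312 lowered (1.69%) changed by at most 2-fold. Above 2-fold, 34 genes were raised (0.184%) and 18 lowered (0.0976%). The raised small changes had a median of 1.42-fold (log2 0.51, quartiles 0.40 and 0.64) and the lowered ones of 1.40-fold (quartiles 0.39 and 0.62 of the size on the log2 scale). The smallest difference that passed was 0.26 on the log2 scale in both directions, and 168 of the raised and 217 of the lowered genes moved by less than 1.5-fold. Protein-coding genes made up 254 of the raised and 310 of the lowered ones.

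The replicates were then compared within the small changes. In each of the 266 raised genes every siGAR1 library lay above every siControl library, and in each of the 312 lowered genes below. Over all genes, 13.6% had siGAR1 libraries that were all higher and 14.1% libraries that were all lower, and the test favors genes whose groups do not overlap, so nothing is read from this agreement. The same holds for single passing genes below whose groups are said not to overlap. Against the siControl mean, the raised genes had median log2 differences of 0.52, 0.51 and 0.50 in siGAR1 replicates 1, 2 and 3, and the lowered genes of -0.52, -0.46 and -0.48. The smallest difference was in siGAR1 replicates 1, 2 and 3 for 60, 66 and 140 of the 266 raised genes. For the 312 lowered genes these numbers were 74, 123 and 115. Without siGAR1 replicate 3, 242 genes were raised (1.29% of 18821 tested) and 296 lowered (1.57%), and without siControl replicate 1, 167 were raised and 199 lowered. Set against siDyskerin instead of siControl, the raised small changes had a median log2 difference of 0.06 and the lowered ones of -0.33. These comparisons share the siGAR1 libraries. Over all genes, 2.78% passed as higher and 2.61% as lower in siGAR1 than in siDyskerin.

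**Figure D2:**
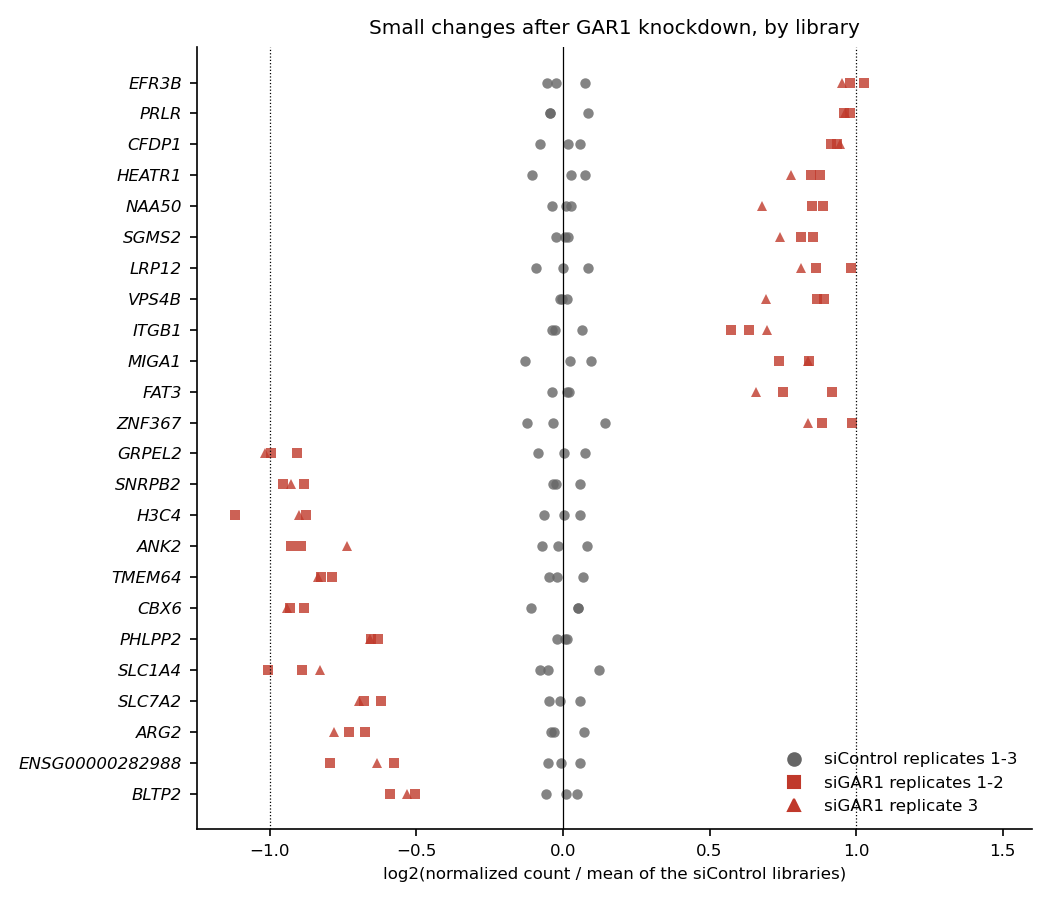
Log2 ratio of the normalized count to the siControl mean, for the 12 raised and 12 lowered protein-coding genes under 2-fold with the smallest p (mean log2 CPM of 3 or more and groups that do not overlap, as the rule required). Grey circles are the 3 siControl libraries, red squares siGAR1 replicates 1 and 2, the red triangle siGAR1 replicate 3, and the dotted lines mark 2-fold. GRPEL2 and EFR3B, the genes with the smallest p on each side, had log2 differences of -0.97 and 0.99.

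Gene composition moved with the direction of change. Genes that rose had a median GC content of 43.6% in their most read transcript, genes that fell 52.1%, and all tested genes 47.9%. Over 5 equal groups of the 9323 genes whose mean log2 CPM reached 3, ordered from low to high GC, the median log2 difference went from 0.08 through 0.04, 0.01 and -0.05 to -0.09. Raised genes numbered 71, 65, 59, 30 and 10 in these groups, and lowered genes 29, 39, 58, 61 and 86. Without siControl replicate 1 the medians were 0.01, 0.02, 0.02, -0.02 and -0.05, whereas without siGAR1 replicate 3 they ran from 0.08 to -0.08 as before. That control library had lower counts of AT-rich genes than the other 2 controls: its median departure from them ran from -0.18 in the lowest to 0.14 in the highest GC group. When each library's trend over GC entered the fit as an offset (an alternative chosen after seeing the data), 497 genes were raised and 476 lowered, with median GC of 46.1% and 46.7%. Of the 630 genes that passed without the offset, 595 passed with it, among them 261 of the 266 and 283 of the 312 small changes. Of the genes below that the naming rule picked, EEF1D, GSPT1, JUND, LRP5 and NUDT21 no longer passed with the offset.

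**Figure D3:**
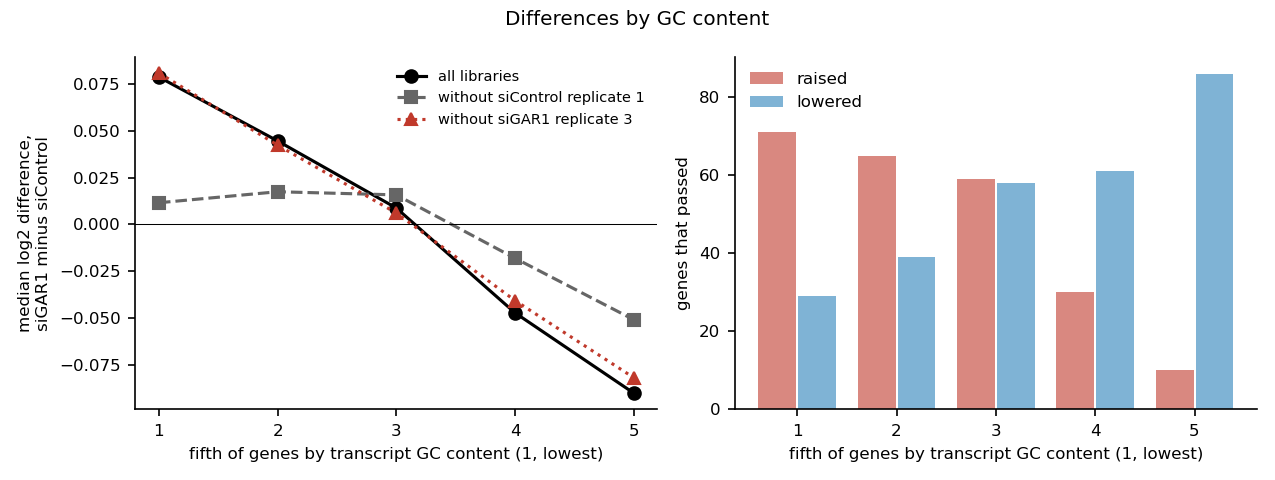
Left, median log2 difference between siGAR1 and siControl in 5 equal groups of genes by the GC content of the most read transcript, with all libraries (black), without siControl replicate 1 (grey, dashed) and without siGAR1 replicate 3 (red, dotted). Right, genes raised or lowered at an adjusted p under 0.01 in each group. With all libraries the medians fell from 0.08 to -0.09, and without siControl replicate 1 from 0.01 to -0.05.

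Among the raised small changes with the smallest p were genes of membranes, cell adhesion and the nucleolus. EFR3B, a plasma membrane anchor of the phosphatidylinositol 4-kinase complex, had 2432, 2222 and 2272 counts in siControl and 4704, 4556 and 4470 in siGAR1. The 3 siGAR1 libraries were close together and well apart from the controls. EFR3B rose by 0.99 on the log2 scale (SE 0.07, adjusted p = 4.2e-06, edgeR), and was at 5219, 5133 and 4671 counts in siDyskerin. PRLR, the prolactin receptor, had 952, 952 and 1040 counts in siControl and 1907, 1933 and 1910 in siGAR1, with a log2 difference of 0.97 ± 0.07. HEATR1, a factor of ribosomal RNA transcription and small subunit processing, had 8249, 9341 and 9034 counts in siControl and 15969, 16298 and 15230 in siGAR1. It was raised in all 3 siGAR1 libraries, by 0.84 ± 0.06, and stood at 15239, 16402 and 16269 in siDyskerin. ITGB1, the beta 1 chain of the integrin matrix receptors, had 53760, 57257 and 53399 counts in siControl and 81444, 85090 and 88734 in siGAR1. Its highest value was in siGAR1 replicate 3, and it rose by 0.63 (SE 0.06, adjusted p = 4.1e-05). The other genes of this set rose by 0.78 to 0.93, namely CFDP1, NAA50 (an N-terminal acetyltransferase), SGMS2 (sphingomyelin synthase), LRP12, VPS4B (the ATPase that recycles ESCRT-III), MIGA1 (mitochondrial fusion), FAT3 and ZNF367.

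Most of these raised genes had counts in siDyskerin near those in siGAR1. Both knockdowns share the controls and the supplier of the siRNA. A rise in both therefore cannot be told apart from an effect of the control siRNA or of the supplier. The log2 difference between siGAR1 and siDyskerin was between -0.13 and 0.15 for 9 of the 12 genes. It was 0.38 for CFDP1 and 0.36 for LRP12. FAT3, an atypical cadherin, differed most between the knockdowns, with 1453, 1397 and 1448 counts in siControl, 2704, 2412 and 2260 in siGAR1 and 771, 786 and 762 in siDyskerin. It was thus raised by 0.78 over siControl (SE 0.08) and lay 1.67 above siDyskerin (adjusted p = 3.8e-08, edgeR).

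The lowered small changes with the smallest p included a mitochondrial import factor, a splicing protein and transporters and enzymes of amino acids. GRPEL2, a cochaperone of the mitochondrial HSP70, had 3738, 3975 and 4179 counts in siControl and 2111, 1987 and 1960 in siGAR1. SNRPB2, the U2 snRNP protein B'', had 3697, 3939 and 3729 counts in siControl and 2055, 1954 and 1991 in siGAR1. In both genes the siGAR1 libraries lay below all controls. GRPEL2 fell by 0.97 (SE 0.07, adjusted p = 4.2e-06) and SNRPB2 by 0.92 (SE 0.07, adjusted p = 5.5e-06, edgeR). SLC1A4, an exchanger of serine, alanine and cysteine, had 2504, 2216 and 2176 counts in siControl and 1145, 1239 and 1294 in siGAR1 (log2 difference -0.91 ± 0.08 SE). SLC7A2, a transporter of arginine and lysine, had 8650, 8889 and 9316 counts in siControl and 5822, 5593 and 5524 in siGAR1 (-0.66 ± 0.06). ARG2, the mitochondrial arginase, fell by 0.73 (SE 0.07) from 2312, 2300 and 2482 to 1424, 1482 and 1376. None of these 5 genes overlapped between the groups, as the rule that named them required. The remaining genes of the set were ANK2, TMEM64, CBX6, PHLPP2, BLTP2, the histone gene H3C4 and ENSG00000282988, an annotated gene that spans H3C4 and H2AC7 and may count the same reads.

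Of the 12 lowered genes, 11 had negative log2 differences between siGAR1 and siDyskerin too, from -0.28 (ENSG00000282988, which did not pass, adjusted p = 0.012) to -1.11 (TMEM64). GRPEL2 was at 3784, 3612 and 3779 and SNRPB2 at 3451, 3900 and 3704 in siDyskerin, close to siControl. CBX6, a Polycomb protein, differed from the others, with 8508, 7605 and 8504 counts in siControl, 4302, 4449 and 4268 in siGAR1 and 4821, 3983 and 4052 in siDyskerin. Its log2 difference was -0.92 against siControl and 0.02 against siDyskerin (adjusted p = 0.92, edgeR).

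Few genes exceeded 2-fold in either direction. SMIM15, a small membrane protein, had 577, 692 and 654 counts in siControl and 1720, 1801 and 1635 in siGAR1, a log2 difference of 1.42 (SE 0.09, adjusted p = 1.4e-06, edgeR). The groups were widely separated, and siDyskerin was at 1582, 1713 and 1668. The other large increases named by the rule were in EPHA4 (log2 1.35), an ephrin receptor, RIC3 (1.36), a chaperone of acetylcholine receptors, RNF43 (1.30), a negative regulator of Wnt receptors, and CYP4F11 (1.40), whose reads may be shared with close relatives. Apart from GAR1, the rule named as decreases SPOCD1 (-1.26), SRF (-1.18), IDH2 (-1.13) and the histone gene H2AC15 (-1.12). IDH2, the mitochondrial NADP-dependent isocitrate dehydrogenase, had 488, 435 and 373 counts in siControl and 175, 184 and 238 in siGAR1, with no overlap.

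**Figure D4:**
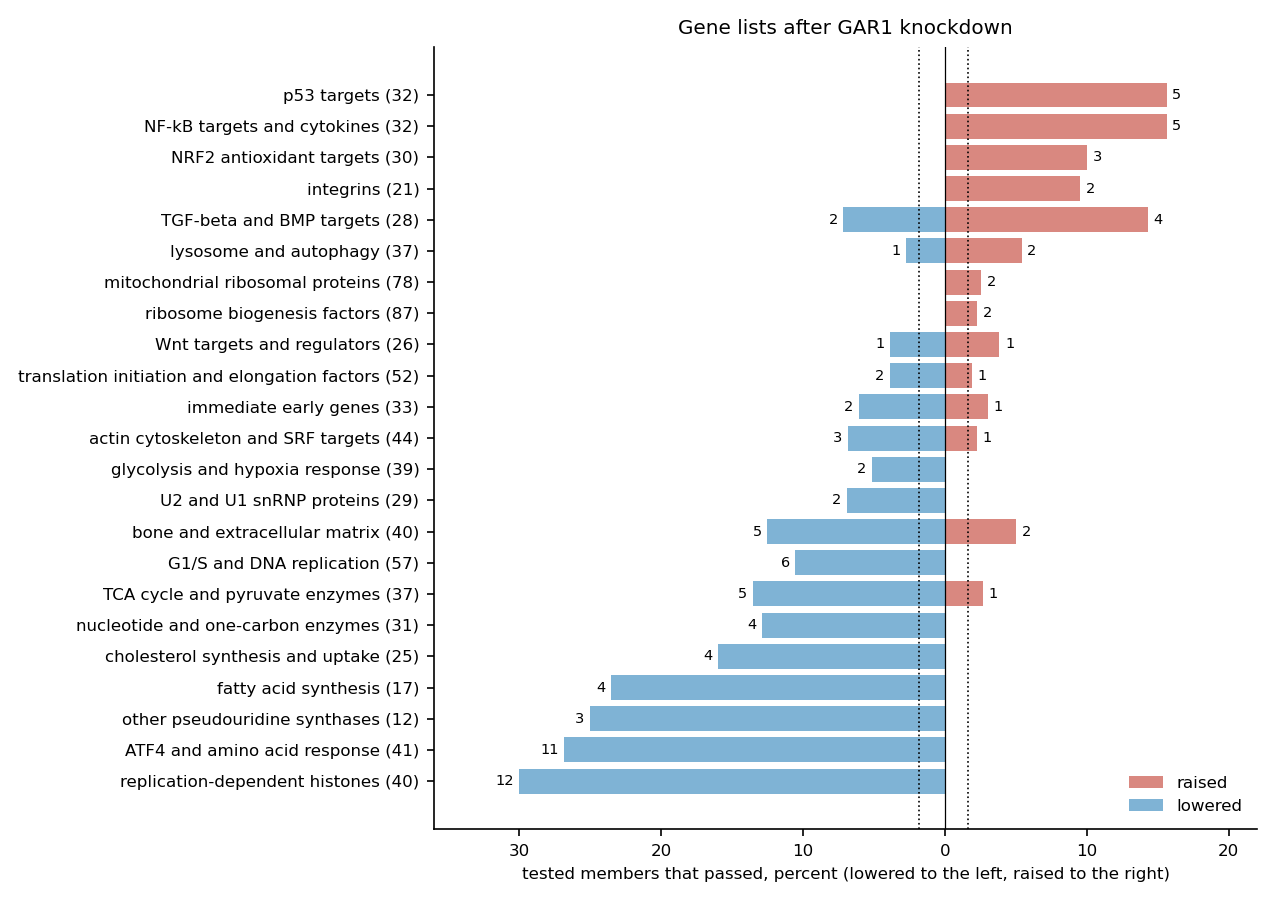
Share of the tested members of 23 gene lists that passed (adjusted p under 0.01), lowered to the left and raised to the right, with the number of members that passed at the end of each bar and the number tested in parentheses. The dotted lines give the share over all genes tested, 1.63% raised and 1.79% lowered. Histones (12 of 40), ATF4 and amino acid response genes (11 of 41) and other pseudouridine synthases (3 of 12) had the highest lowered shares, and p53 and NF-kB targets (5 of 32 each) the highest raised shares. Lists in which fewer than 2 members passed are left out.

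Several genes of amino acid supply were lowered. ATF4 is a transcription factor that is translated when amino acids are short or the endoplasmic reticulum is stressed, and it activates genes for serine, glycine and asparagine synthesis, amino acid transport and tRNA charging. Of 41 tested genes of the ATF4 and amino acid response list, 11 were lowered and 0 raised. DESeq2 lowered 17 and raised 0, beside 706 lowered and 575 raised over all 18444 genes. At an unadjusted p under 0.05, 23 were lower and 1 higher, where 2246 of all genes were lowered and 2185 raised. The DESeq2 and unadjusted counts of the lists below stand beside these same totals. The median log2 difference of the list was -0.24, against 0.01 over all genes, and 37 of 41 members were below 0. The 3 siGAR1 libraries lay below all siControl libraries for 24 members (14.1% over all genes), and the medians in siGAR1 replicates 1, 2 and 3 were -0.26, -0.18 and -0.27. ASNS, asparagine synthetase, had 25176, 25319 and 24109 counts in siControl, 17058, 16990 and 16586 in siGAR1 and 25677, 28766 and 26573 in siDyskerin. PSAT1, of serine synthesis, had 3447, 3274 and 3279 counts in siControl, 2157, 2214 and 2075 in siGAR1 and 3605, 3920 and 3676 in siDyskerin. Each siGAR1 library was thus below every library of both other groups in these genes. ASNS fell by 0.56 (SE 0.06, adjusted p = 6.8e-05) and PSAT1 by 0.63 (SE 0.07, adjusted p = 6.8e-05, edgeR).

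Further lowered members of the list had other roles. CHAC1, which cleaves glutathione, had 626, 567 and 663 counts in siControl and 281, 317 and 293 in siGAR1, and fell by 1.06 (SE 0.11). PCK2, the mitochondrial phosphoenolpyruvate carboxykinase, had 6188, 5256 and 4987 counts in siControl and 2824, 3562 and 3138 in siGAR1, and fell by 0.79 (SE 0.09). Neither gene overlapped between the groups. PHGDH, the first enzyme of serine synthesis, had 58804, 55057 and 54246 counts in siControl, 38513, 42062 and 42455 in siGAR1 and 76453, 71438 and 71276 in siDyskerin, so the knockdowns lay on opposite sides of the control. CTH, ALDH1L2, DDIT4, CARS1, SHMT2 and MTHFD2 completed the 11, with log2 differences of -0.65 (CTH) to -0.34 (MTHFD2). ATF4 itself, named after its values were seen, had 22686, 23292 and 20256 counts in siControl and 16633, 19632 and 15171 in siGAR1. Its groups did not overlap, but it did not pass (log2 difference -0.36, SE 0.09, adjusted p = 0.021). The list had 10 lowered members without siControl replicate 1, had 12 without siGAR1 replicate 3, and had 14 with the GC offset.

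Promoters of lowered ATF4 list members were searched for TGATGNAA on both strands, the core of the composite element that ATF4 binds with C/EBP proteins, in windows from 250 bases before to 50 after the annotated start (RefSeq, GRCh38.p14). Such a match was found in 368 of 12081 tested genes with a promoter (3.05%), or 2.20% of 17638 windows. In the ATF4 list 14 of 35 genes held it, 3 of 9 that were lowered and 11 of 26 that did not pass. The 3 windows of lowered members are shown, 5′ to 3′ on the gene's strand with the match in capitals. They are ASNS (chr7:97872359-97872658, minus strand), CHAC1 (chr15:40953221-40953520, plus strand) and CARS1 (chr11:3057374-3057673, minus strand), and in CHAC1 and CARS1 the match is on the opposite strand.
ASNS: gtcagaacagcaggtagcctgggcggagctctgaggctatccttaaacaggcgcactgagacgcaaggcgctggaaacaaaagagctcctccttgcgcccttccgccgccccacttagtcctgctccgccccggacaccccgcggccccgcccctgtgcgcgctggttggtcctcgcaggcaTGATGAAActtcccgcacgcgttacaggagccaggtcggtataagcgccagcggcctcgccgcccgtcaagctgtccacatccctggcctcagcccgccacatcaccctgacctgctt
CHAC1: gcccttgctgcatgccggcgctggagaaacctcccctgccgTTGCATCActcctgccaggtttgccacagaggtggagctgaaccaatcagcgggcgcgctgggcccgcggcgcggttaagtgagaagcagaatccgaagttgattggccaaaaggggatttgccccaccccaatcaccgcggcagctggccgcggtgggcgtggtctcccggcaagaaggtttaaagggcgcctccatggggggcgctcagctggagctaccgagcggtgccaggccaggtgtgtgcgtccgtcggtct
CARS1: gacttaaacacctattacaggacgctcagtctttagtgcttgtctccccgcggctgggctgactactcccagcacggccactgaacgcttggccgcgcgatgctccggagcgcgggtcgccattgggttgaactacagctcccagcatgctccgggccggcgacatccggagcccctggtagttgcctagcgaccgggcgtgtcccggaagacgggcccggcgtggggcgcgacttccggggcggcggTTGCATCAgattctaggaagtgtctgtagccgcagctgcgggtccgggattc
The match began 68 bases before the start in ASNS, 209 before it in CHAC1 and 2 before it in CARS1.

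Some enzymes of lipid and carbon metabolism were lowered, and ME3 was raised. Of 17 fatty acid synthesis genes 4 were lowered and 0 raised (7 and 0 with DESeq2, 10 and 1 at an unadjusted p under 0.05), with a list median of -0.24, and 3 without siControl replicate 1. They were ACACA (acetyl-CoA carboxylase, log2 difference -0.27), SCD (stearoyl-CoA desaturase, -0.45), FADS1 (-0.48) and ELOVL5 (-0.39). SCD had 12927, 12069 and 12241 counts in siControl and 8538, 9653 and 9095 in siGAR1, with no overlap. Of 25 cholesterol genes 4 were lowered (LSS, MVD, LBR and STARD4) and 0 raised (6 and 0 with DESeq2, 9 and 1 unadjusted), with a median of -0.10, and 2 without siGAR1 replicate 3. LBR, a sterol reductase of the inner nuclear membrane, had 8052, 8672 and 8546 counts in siControl and 5573, 5637 and 6508 in siGAR1, and lay 0.91 below siDyskerin on the log2 scale. Among 37 enzymes of the TCA cycle and pyruvate metabolism, IDH1, IDH2, PCK2, PC and MPC1 were lowered and ME3, a mitochondrial malic enzyme, was raised. DESeq2 lowered 10 and raised 1, and only 3 were lowered without siControl replicate 1 and 3 without siGAR1 replicate 3. IDH1, the cytosolic isocitrate dehydrogenase, had 8572, 8665 and 8568 counts in siControl and 5572, 6326 and 5985 in siGAR1 (log2 difference -0.53, SE 0.07). ME3 had 181, 138 and 188 counts in siControl and 292, 353 and 328 in siGAR1 (0.94, SE 0.14). No siGAR1 library overlapped the controls in these genes. Of 39 glycolysis and hypoxia genes, PFKP and P4HA1 were lowered, by 0.66 and 0.37. Of 31 nucleotide and folate enzymes 4 were lowered, among them SHMT2, MTHFD2 and PRPS2, and 1 passed without siControl replicate 1 and 2 without siGAR1 replicate 3. In the respiratory chain, 0 of 13 mitochondrially encoded mRNAs (0 with DESeq2, 1 at an unadjusted p under 0.05) and 1 of 83 nuclear genes of the respiratory chain, UQCRC2 (-0.34), passed. Of these nuclear genes DESeq2 lowered 6, and at an unadjusted p under 0.05 edgeR had 12 lower and 1 higher. Without siGAR1 replicate 3, 2 were lowered.

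Some histone and G1/S genes were lowered, and no gene of the mitotic list passed. Replication-dependent histone genes are transcribed in S phase and their mRNAs end in a stem-loop in place of a poly(A) tail, so total RNA libraries capture them. Of 40 tested histone genes (69 listed), 12 were lowered and 0 raised (15 and 0 with DESeq2, 26 and 0 at an unadjusted p under 0.05), with a median of -0.24, and 36 were below 0. Many histone genes are near-identical, so counts of single members are uncertain. H3C4 had 5138, 4954 and 4723 counts in siControl, 2275, 2687 and 2648 in siGAR1 and 3638, 3594 and 3572 in siDyskerin. H2AC15 had 811, 800 and 675 counts in siControl and 295, 371 and 393 in siGAR1. In both genes siGAR1 lay below all controls, and replicate 1 was the lowest. H3C4 fell by 0.96 (SE 0.07, adjusted p = 6.0e-06) and H2AC15 by 1.12 (SE 0.12, adjusted p = 7.8e-05, edgeR). H3C10 and H2BC15 fell by 0.63 and 0.73. The list median was -0.39, -0.19 and -0.18 in siGAR1 replicates 1, 2 and 3. Lowered members numbered 7 without siControl replicate 1, 7 without siControl replicate 2, 5 without siGAR1 replicate 1, 11 without siGAR1 replicate 3 and 10 with the GC offset.

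The octamer ATTTGCAT, the element that OCT1 binds in H2B promoters, was searched for in the same windows on both strands. It was present in 243 of 12081 genes (2.01%) and in 17 of 37 histone genes, 4 of 11 that were lowered and 13 of 26 that did not pass. The window of H2BC11 (chr6:27132746-27133045, minus strand), a lowered H2B gene chosen after its values were seen, is shown with the octamer in capitals.
H2BC11: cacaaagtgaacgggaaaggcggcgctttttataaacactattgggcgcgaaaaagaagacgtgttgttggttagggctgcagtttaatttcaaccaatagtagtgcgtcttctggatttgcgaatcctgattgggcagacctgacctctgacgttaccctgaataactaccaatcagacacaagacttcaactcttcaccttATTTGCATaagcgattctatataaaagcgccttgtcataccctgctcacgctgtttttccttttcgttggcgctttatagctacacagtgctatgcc
H2BC11 had 19466, 19140 and 17186 counts in siControl and 14189, 15581 and 14915 in siGAR1, with no overlap, and fell by 0.32 (SE 0.06, adjusted p = 0.0064, edgeR).

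Of 57 G1/S and DNA replication genes 6 were lowered and 0 raised (14 and 0 with DESeq2, 31 and 0 at an unadjusted p under 0.05). The list median was -0.16, 48 members were below 0, and for 36 the siGAR1 libraries lay below all controls (14.1% over all genes). CCNE1, cyclin E1, which drives entry into S phase, had 8326, 8010 and 7546 counts in siControl, 4750, 4978 and 3903 in siGAR1 and 4312, 4678 and 4019 in siDyskerin. Both knockdowns were below all controls, and CCNE1 fell by 0.81 (SE 0.09, adjusted p = 1.0e-04, edgeR) with a difference of 0.07 from siDyskerin. CCNE2, cyclin E2, had 1417, 1679 and 1384 counts in siControl and 1005, 956 and 1116 in siGAR1 (log2 difference -0.54, SE 0.10). DSCC1, of the alternative clamp loader, E2F1 and the helicase subunit MCM7 were also lowered, at -0.60 (E2F1) to -0.26 (MCM7). The count was 6 without siGAR1 replicate 3, 1 to 3 on leaving out any other single library of the comparison, and 9 with the GC offset. Of 55 G2/M and mitosis genes 0 passed (median 0.01), while DESeq2 raised 2 and lowered 2, and 8 were higher and 11 lower at an unadjusted p under 0.05.

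Some p53, NF-kB and NRF2 targets were raised. Of 32 tested p53 targets 5 were raised and 0 lowered (8 and 0 with DESeq2, 15 and 1 at an unadjusted p under 0.05), with a median of 0.16, and for 17 the siGAR1 libraries lay above all controls (13.6% over all genes). MDM2, the ubiquitin ligase of p53, had 21694, 23884 and 26372 counts in siControl and 32038, 29790 and 33765 in siGAR1 (log2 difference 0.41, SE 0.07, adjusted p = 0.0036, edgeR). SESN1, a sestrin, had 1023, 1228 and 1280 counts in siControl and 1946, 1798 and 1747 in siGAR1 (0.64, SE 0.09). GADD45A, EDA2R and FAS rose by 0.36, 0.34 and 0.56, and none of the 5 overlapped between the groups. Against siDyskerin, MDM2, SESN1, GADD45A and EDA2R had log2 differences of 0.13, 0.13, 0.12 and 0.16, and none of these passed. The list median against siDyskerin was 0.10. CDKN1A, the p21 gene, named after its values were seen, had 15501, 13744 and 15026 counts in siControl and 12497, 14153 and 13066 in siGAR1, an overlapping pair of ranges (-0.16, adjusted p = 0.19). The list had 3 raised members without siControl replicate 1 and 3 without siGAR1 replicate 3, 1 to 3 on leaving out any single library, and 8 with the GC offset.

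The NF-kB list also had 5 of 32 members raised and 0 lowered (7 and 0 with DESeq2, 13 and 1 at an unadjusted p under 0.05), with a median of 0.19. PTX3, a secreted protein of innate immunity, had 477, 552 and 523 counts in siControl and 1453, 1328 and 1026 in siGAR1. TRAF1, an adaptor of TNF receptors, had 436, 480 and 495 counts in siControl and 1041, 1068 and 822 in siGAR1. BIRC3, an apoptosis inhibitor, had 790, 1144 and 1067 counts in siControl and 2022, 2067 and 1578 in siGAR1. In all of these the groups were apart and siGAR1 replicate 3 was the lowest siGAR1 library. In siDyskerin PTX3 had 1111, 1089 and 950 counts, TRAF1 1041, 1036 and 991 and BIRC3 1122, 1448 and 1373. The log2 differences between siGAR1 and siDyskerin were 0.27, -0.06 and 0.53, and none of these passed. PTX3 rose by 1.30 (SE 0.12), TRAF1 by 1.06 (SE 0.11), BIRC3 by 0.92 (SE 0.14), TNFAIP2 by 0.65 (SE 0.09) and CSF2, the cytokine GM-CSF, by 1.35 (SE 0.22). The list median was 0.23, 0.31 and -0.01 in siGAR1 replicates 1, 2 and 3. Without replicate 3, 6 members passed, and without siControl replicate 1, 5. Among 33 type I interferon genes 0 passed with edgeR or DESeq2 (median 0.01), and 4 were higher and 3 lower at an unadjusted p under 0.05.

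Of 30 NRF2 antioxidant targets 3 were raised and 0 lowered (4 and 2 with DESeq2, 8 and 2 at an unadjusted p under 0.05). HMOX1, heme oxygenase, had 1131, 1056 and 990 counts in siControl, 1890, 2120 and 1668 in siGAR1 and 2048, 1880 and 1772 in siDyskerin. It rose by 0.84 (SE 0.10, adjusted p = 1.4e-04, edgeR), with all siGAR1 and siDyskerin libraries above the controls. GCLM, a subunit of the enzyme that starts glutathione synthesis, rose by 0.45 and NFE2L2, which encodes NRF2, by 0.39. The count was also 3 without siControl replicate 1, without siGAR1 replicate 3 and with the GC offset. Of 20 heat shock genes 0 passed with edgeR or DESeq2 (4 were higher and 2 lower at an unadjusted p under 0.05), and of 27 endoplasmic reticulum chaperone genes 1 did, XBP1 (-0.44).

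Adhesion, matrix and contractile genes moved in both directions. SRF is the factor that, with actin-regulated cofactors, activates contractile and immediate early genes through CArG boxes. SRF had 1265, 1071 and 1064 counts in siControl, 532, 491 and 478 in siGAR1 and 1085, 933 and 849 in siDyskerin. The siGAR1 libraries lay at less than the lowest value of either other group, and SRF fell by 1.18 (SE 0.11, adjusted p = 2.7e-05, edgeR). Its own promoter (chr6:43171019-43171318, plus strand, RefSeq GRCh38.p14) held 2 CArG boxes, whose palindromic pattern reads on both strands, shown in capitals, 30 and 10 bases before the start.
SRF: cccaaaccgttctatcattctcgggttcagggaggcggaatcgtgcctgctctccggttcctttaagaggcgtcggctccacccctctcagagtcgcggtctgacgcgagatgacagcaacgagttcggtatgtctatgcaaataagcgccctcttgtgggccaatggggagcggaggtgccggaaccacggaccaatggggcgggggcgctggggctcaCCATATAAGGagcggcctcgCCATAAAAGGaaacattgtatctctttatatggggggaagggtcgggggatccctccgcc
A CArG box was present in the windows of 194 of 12081 genes (1.61%), 10 of 40 genes of the actin and SRF target list and 3 of 26 immediate early genes. In the actin and SRF target list 0 of 1 lowered gene with a window and 10 of 38 that did not pass held it. That list had 3 lowered genes, of which only this 1 could be searched. Among immediate early genes 1 of 2 lowered, SRF itself, and 2 of 24 that did not pass held it.

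Of 44 actin cytoskeleton and SRF target genes 3 were lowered and 1 raised (5 and 3 with DESeq2, 2 and 1 without siControl replicate 1, 3 and 2 without siGAR1 replicate 3). TAGLN, the actin-binding protein transgelin, had 9652, 9638 and 8425 counts in siControl, 5295, 6013 and 5668 in siGAR1 and 9806, 9406 and 8830 in siDyskerin. It fell by 0.71 (SE 0.07, adjusted p = 7.3e-05, edgeR) and lay below all libraries of both other groups. TPM1, a tropomyosin, and MYL9, a myosin light chain, fell by 0.49 and 0.47. FERMT2, kindlin-2, an activator of integrins, rose by 0.61 (SE 0.06) from 20793, 23216 and 22281 to 33888, 35220 and 31955. Against siDyskerin its log2 difference was -0.06. Of 21 integrin genes 2 were raised, ITGB1 and ITGA6 (0.28), and 0 lowered (4 and 0 with DESeq2, 5 and 1 at an unadjusted p under 0.05). Without siGAR1 replicate 3, 1 integrin gene was raised, and ITGA6 did not pass (log2 difference 0.31, adjusted p = 0.010, edgeR). Of 33 immediate early genes, KLF10 was raised (0.35) and SRF and JUND were lowered, JUND by 0.52. Without siControl replicate 1, 0 were raised and 1 lowered, and without siGAR1 replicate 3, 3 were raised and 1 lowered, JUND not passing. Of 26 Wnt genes, RNF43 was raised and LRP5, a coreceptor, was lowered (-0.55), while without siControl replicate 1, 2 were raised and 0 lowered. Of 25 YAP targets 1 passed, TGFB2, which was lowered (-0.42), and without siGAR1 replicate 3, 1 was also raised. CLDN1, a claudin of tight junctions, was raised by 1.05 (SE 0.11) from 171, 167 and 163 counts to 352, 352 and 332, the single member of 18 to pass in its list.

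Of 28 TGF-beta and BMP targets 4 were raised and 2 lowered (4 and 3 with DESeq2). Without siControl replicate 1, 2 were raised and 2 lowered, and without siGAR1 replicate 3, 3 and 2. TGFBI, a secreted matrix protein, had 3961, 4404 and 3866 counts in siControl and 2652, 2830 and 2523 in siGAR1, and fell by 0.61 (SE 0.08, adjusted p = 2.7e-04, edgeR), with no overlap. Against siDyskerin the log2 difference of TGFBI was 0.001. CCN3, INHBA and KLF10 were among the raised members, and TGFB2 fell. In the bone and extracellular matrix list 5 of 40 genes were lowered and 2 raised. PLOD2, which hydroxylates collagen lysines, had 8928, 11054 and 10292 counts in siControl and 16764, 16551 and 16621 in siGAR1, and rose by 0.72 (SE 0.08). Against siDyskerin the log2 difference of PLOD2 was 0.13, which did not pass. FBN1, fibrillin, rose by 0.55. The fibronectin gene FN1, the collagen gene COL12A1, TNC, LOXL3 and P4HA1 fell by 0.30 to 0.61. Without siControl replicate 1, 2 matrix genes were lowered and 1 raised, and without siGAR1 replicate 3, 5 and 1.

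Some pseudouridine synthases were lowered, and no guide RNA gene with enough reads to be tested passed. Of 12 pseudouridine synthases other than dyskerin 3 were lowered and 0 raised (4 and 0 with DESeq2 and at an unadjusted p under 0.05), and 2 were lowered without siControl replicate 1 as without siGAR1 replicate 3. TRUB1, which modifies tRNA and mRNA without a guide RNA, had 852, 930 and 985 counts in siControl and 675, 684 and 684 in siGAR1 (log2 difference -0.44, SE 0.09, adjusted p = 0.0089, edgeR), and did not pass without siGAR1 replicate 3 (-0.45, adjusted p = 0.020). RPUSD3, a mitochondrial enzyme, had 3346, 3156 and 2981 counts in siControl and 2058, 2400 and 2006 in siGAR1 (-0.55, SE 0.08). RPUSD1 fell by 0.46, and none of the 3 overlapped between the groups. Of the guide RNA genes, 64 of 213 SNORA, 18 of 25 SCARNA and 31 of 314 SNORD genes had enough reads to be tested. A mean log2 CPM of 3 was reached by 2, 7 and 2 of them, so most had low counts. Among the tested genes, 0 of 64 SNORA genes (median 0.15), 0 of 18 SCARNA genes (0.05) and 0 of 31 SNORD genes (0.35) passed. DESeq2 called 1 SCARNA gene higher and none of the others, and at an unadjusted p under 0.05 edgeR had 4 SNORA, 2 SCARNA and 6 SNORD genes higher and 1 SNORA gene lower. Their medians were 0.52, -0.01 and -0.17 for SNORA genes and 0.71, 0.07 and -0.03 for SNORD genes in siGAR1 replicates 1, 2 and 3, so replicate 1 held the high values. Without siGAR1 replicate 3, 1 SNORD gene was raised. Of 29 noncoding snoRNA host genes and 12 telomerase and shelterin genes 0 passed (1 and 0, respectively, with DESeq2, 6 and 1 at an unadjusted p under 0.05).

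Some splicing and translation genes passed. The lowered share was 6.90% in the U2 and U1 list and 4% in the B complex and tri-snRNP list, beside 1.79% over all genes. Raised shares were 2.30% for ribosome biogenesis factors, 2.56% for mitochondrial ribosomal proteins and 1.92% for translation factors, beside 1.63%. Of translation factors 3.85% were lowered. Each of these shares rests on 1 or 2 genes. Of 29 U2 and U1 snRNP proteins SNRPB2 and PHF5A were lowered, by 0.92 and 0.35, and of 25 B complex and tri-snRNP proteins MFAP1 was, by 1.02 (764, 880 and 813 counts in siControl, 386, 344 and 484 in siGAR1). On leaving out either siControl replicate 1 or siGAR1 replicate 3, 1 of the U2 and U1 proteins was lowered and 1 B complex or tri-snRNP protein was raised, and without siGAR1 replicate 3, 1 U2 or U1 protein was raised too. Of 39 SR proteins and hnRNPs 0 passed (2 raised and 0 lowered with DESeq2, 16 higher and 2 lower at an unadjusted p under 0.05), with a median of 0.13. In this list 30 members were above 0, and for 16 the siGAR1 libraries lay above all controls (13.6% over all genes). With the GC offset 0 were raised and 2 lowered. Of 87 ribosome biogenesis factors HEATR1 and DDX47 (0.27) were raised, 1 of the list without siControl replicate 1 and 1 without siGAR1 replicate 3, and 0 of 86 cytosolic ribosomal protein genes and 0 of 16 RNA polymerase I genes passed (4 and 1, respectively, with DESeq2, 18 and 5 at an unadjusted p under 0.05). All 5 of these RNA polymerase I genes were higher, and of the 18 ribosomal protein genes 8 were higher and 10 lower. With the GC offset 3 RNA polymerase I genes were raised and 2 ribosomal protein genes lowered. Of 78 mitochondrial ribosomal protein genes MRPL50 was raised by 0.90 (684, 761 and 711 counts in siControl, 1479, 1392 and 1158 in siGAR1) and MRPS31 by 0.51, and 1 of the list was raised without siControl replicate 1. Among 52 translation factors, GSPT1, the release factor eRF3a, was raised by 0.27, and EIF4G3 and EEF1D were lowered by 0.46 and 0.33, while 0 were raised without siControl replicate 1. In the lysosome and autophagy list of 37 genes, ATP6V1A, a subunit of the proton pump, rose by 0.55, the protease gene CTSL by 0.47, and the sialidase gene NEU1 fell by 0.47, with 0 lowered without siControl replicate 1.

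Replicate 3 of siGAR1 was then set against the other 2. For each library, log2 CPM was compared with the mean of the other 2 libraries of its group over 9323 genes, as a description without a test. The departures of siGAR1 replicate 3 had an SD of 0.18, and 76 genes (0.815%, 95% Wilson interval 0.652 to 1.02, counting error only) differed by more than 1.5-fold, 68 higher and 8 lower. In siGAR1 replicates 1 and 2 the SD was 0.13 and 0.14, and 17 and 11 genes did so. The largest departure among the siControl libraries was that of replicate 1, with an SD of 0.19 and 108 genes, 107 of them lower. With the GC offset siControl replicate 1 had an SD of 0.13 and 37 genes, whereas siGAR1 replicate 3 remained at 0.18 with 89 genes, 83 of them higher. Its median departure was between -0.05 and -0.03 in all 5 GC groups. It went from -0.09 in the shortest to 0.01 in the longest of 5 groups by transcript length. Its share of mitochondrial reads was 0.127%, against 0.102 to 0.115% in the other 5 libraries of the comparison. Over the 9323 genes its correlation with each of the other siGAR1 libraries was 0.993, and theirs with each other 0.997, a description over genes of the same libraries. None of the 76 genes passed between the groups, and none of the 17 and 11 genes of siGAR1 replicates 1 and 2 did. A departing library widens the spread of its group and makes passing less likely, so nothing is read from this.

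**Figure D5:**
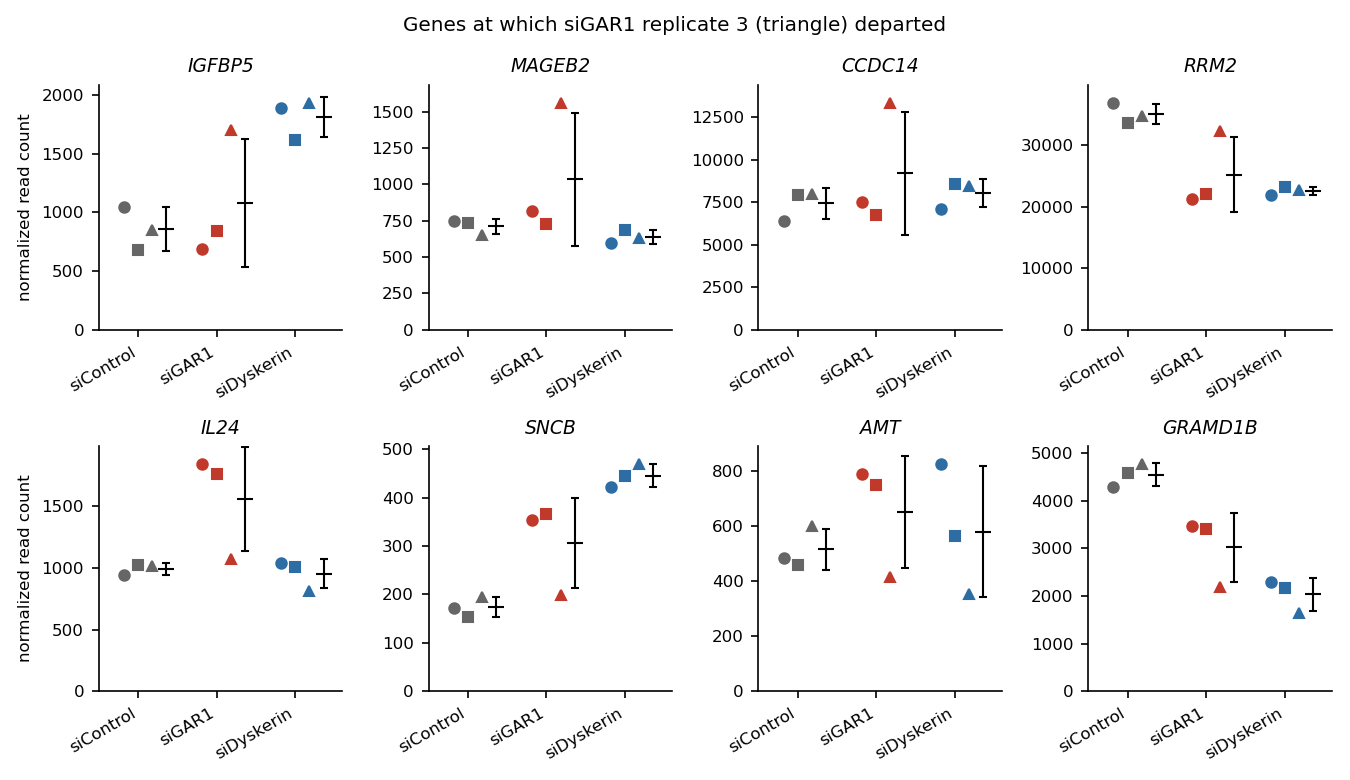
Normalized read counts of 8 genes in the 9 libraries, with axes from 0, at which siGAR1 replicate 3 departed from replicates 1 and 2. Circles, squares and triangles are replicates 1, 2 and 3, and bars are the mean ± SD of 3 libraries. In MAGEB2 and CCDC14 the siGAR1 replicate 3 triangle lay above all other libraries, at 1562 and 13354, while in RRM2, IL24 and SNCB it lay near siControl and in IGFBP5 and GRAMD1B near siDyskerin.

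The genes that were high in siGAR1 replicate 3 included a growth factor binding protein, a cancer-testis gene and a centriolar gene. IGFBP5, a binding protein of insulin-like growth factors, had 690, 838 and 1704 counts in siGAR1 replicates 1, 2 and 3, 1046, 678 and 850 in siControl and 1889, 1618 and 1933 in siDyskerin. MAGEB2, a cancer-testis gene on the X chromosome, had 815, 725 and 1562 counts in siGAR1, and 596 to 750 in the other 6 libraries. Replicate 3 was thus at the siDyskerin level for IGFBP5 and above all libraries for MAGEB2. Over all 9323 genes, its departures had a correlation of only 0.09 with the log2 difference between siDyskerin and siControl. Of its 68 higher genes, 47 were above 0 in that difference. Both values are descriptions over genes. CCDC14, a centriolar satellite gene, had 7525, 6725 and 13354 counts in siGAR1 and 6393 to 8570 in the other 6 libraries. LDLRAD4, F2RL2, SERPING1, PAAF1, SHOC1, MED8 and the signal recognition particle pseudogene RN7SL4P completed the 10 highest, at log2 departures of 0.88 to 1.03. RN7SL4P also varied in the other groups, from 7252 to 12460 in siControl and from 5967 to 14156 in siDyskerin.

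Among the genes low in siGAR1 replicate 3, AMT, of the glycine cleavage system, had 790, 750 and 417 counts in siGAR1, 486, 460 and 602 in siControl and 826, 565 and 352 in siDyskerin. GRAMD1B, a sterol transfer protein, had 3473, 3408 and 2189 counts in siGAR1, 4286, 4586 and 4765 in siControl and 2293, 2175 and 1642 in siDyskerin. Replicate 3 was closer to siDyskerin than its own group in GRAMD1B, while AMT was lowest in replicate 3 of both knockdowns. VEPH1, SMIM29, IL24, OLAH, RPS6KB2, ZNG1F, NPAS2 and MLKL made up the 10 lowest, at log2 departures of -0.76 to -0.57. By list, the NF-kB genes had a median departure of -0.31 in replicate 3 and 0.15 in each of replicates 1 and 2, over 21 genes. Ribosome biogenesis factors (86 genes) and mitochondrial ribosomal proteins (76 genes) were at -0.16, while histones (32 genes) were at 0.14 and nuclear-retained long noncoding RNAs (14 genes) at 0.18. Over all 9323 genes the median was -0.04.

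Without siGAR1 replicate 3, 538 genes passed in place of 630, of which 445 passed with it too, 93 did so only without it and 185 only with it. Leaving out another library left 289 (siGAR1 replicate 1) to 366 (siControl replicate 1) genes. The genes that passed on siGAR1 replicates 1 and 2 alone had, in replicate 3, a median log2 difference from the siControl mean of 0.47 where raised and of -0.46 where lowered, beside 0.57 and -0.58 in replicate 1 and 0.55 and -0.51 in replicate 2, which had been used to choose them. With siGAR1 replicate 2 left out in the same way, the medians in it were 0.59 and -0.46. They were then 0.63 and -0.59 in replicate 1 and 0.62 and -0.55 in replicate 3. With siGAR1 replicate 1 left out, the medians in it were 0.62 and -0.61. RRM2, the small subunit of ribonucleotide reductase, had 36952, 33665 and 34789 counts in siControl, 21286, 22163 and 32305 in siGAR1 and 21854, 23213 and 22673 in siDyskerin. Among the siGAR1 libraries replicate 3 alone lay near the controls. RRM2 did not pass with all libraries (log2 difference -0.48, adjusted p = 0.026) and fell by 0.70 without replicate 3 (adjusted p = 3.9e-05, edgeR). IL24, a cytokine of the IL-10 family, had 938, 1022 and 1012 counts in siControl and 1840, 1761 and 1075 in siGAR1, with a log2 difference of 0.66 (adjusted p = 0.023) and of 0.86 without replicate 3 (adjusted p = 3.6e-04). SNCB, beta-synuclein, had 172, 153 and 195 counts in siControl, 354, 367 and 200 in siGAR1 and 423, 445 and 470 in siDyskerin. RASSF2 and CORO1C also passed without replicate 3 and not with it.

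The 185 genes that passed only with replicate 3 compare with 282 to 350 that were lost on leaving out another library of the comparison. ARHGAP5, a GTPase-activating protein, had 6697, 9558 and 9333 counts in siControl and 14044, 13106 and 14391 in siGAR1, and passed with all libraries (log2 0.70, adjusted p = 0.0020) but not without replicate 3 (0.66, adjusted p = 0.011, edgeR). AMN1 had 581, 576 and 734 counts in siControl and 373, 426 and 343 in siGAR1 (-0.72 with and -0.66 without replicate 3). ALPK2, NUDT21, a subunit of cleavage factor Im, and NAV2 also passed with replicate 3 and not without it. Their log2 differences were 0.42, 0.36 and 0.49 with all libraries and 0.38, 0.34 and 0.45 without replicate 3. In these 5 genes the siGAR1 libraries did not overlap the controls, replicate 3 included.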

How the data were processed

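Nuclear RNA of 9 U2OS libraries (3 siControl, 3 siDyskerin, 3 siGAR1; groups from the sample labels) was sequenced as paired ends. Per the submitters' processing notes and the study's methods, quality control by the authors used FastQC 0.11.9 and trimming Trim Galore 0.6.4, rRNA and tRNA reads were filtered out with Bowtie2 2.4.1, and Salmon 1.2.0 quantified transcripts of GENCODE 27 (GRCh38). The deposited tables give the authors' estimated counts and TPM per transcript, 1 table per library. A read that fits several transcripts may be counted in each, since in all 1363 nested transcript pairs of 1060 genes the longer had no fewer reads, so a gene's sum exceeds its number of read pairs by a factor that depends on its annotation.

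Here, the identifiers of 195887 of 200401 transcripts were found in GENCODE 44 (58425 genes), and estimated counts were summed per gene and rounded. filterByExpr kept 18444 genes, and edgeR 4.0.16 (R 4.3.3, TMM factors 0.982 to 1.02, robust quasi-likelihood F-test, no covariate) was fitted to all 9 libraries. A gene passed at a Benjamini-Hochberg adjusted p under 0.01, and changes were split at 2-fold. The common biological coefficient of variation was 0.0886. The fit was tested on simulated data with known changes. Named genes are the H/ACA core, the 12 raised and 12 lowered protein-coding genes under 2-fold with the smallest p, a mean log2 CPM of 3 or more and no overlap, the 5 highest and 5 lowest above 2-fold (mean log2 CPM of 1 or more), up to 4 passing members of each of 43 lists, the 10 highest and 10 lowest in siGAR1 replicate 3, and up to 5 that passed only with or only without it. Where all passing members of a list are given, or a gene outside the rule, it was chosen after its values were seen. Some genes that the rule picks are not given here. Members and lists were chosen with earlier results of these data known. The list genes DDX58 and FOXF2 were not matched by symbol. Equal replicate numbers were not taken as pairs. P-values measure the spread between 3 samples of a group. Alternatives were DESeq2 1.42.0, relative log expression factors, counts from length-scaled TPM, no count filter, 1 transcript per gene, 6 libraries in the fit, a replicate block, each library left out, other gene sets for the departure of replicate 3 and, added after seeing the data, an offset for GC content. Promoter windows came from a RefSeq table. Python 3.11.15, pandas 2.3.3 and matplotlib 3.10.9 were used.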

Additional observations from a re-analysis of the deposited data

Results flagged for a closer look

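Transcripts that matched no gene of the annotation used here were left out of all comparisons of genes. Their reads may still enter gene sums, since a read that fits several transcripts may be counted in each. Tested alone with the library sizes of the gene fit, 2570 of them had enough reads, of which 53 were raised and 54 lowered at an adjusted p under 0.01 (edgeR), 3 and 2 of these by more than 2-fold. The lowered ones were ENST00000617961.1 (log2 difference -1.08, with 318, 277 and 336 normalized counts in siControl and 132, 166 and 142 in siGAR1) and ENST00000446533.7 (-1.04). The latter had similar counts, 344, 300 and 356 in siControl and 146, 181 and 158 in siGAR1. Whether the 2 share reads was not tested, so they may not be separate changes. The raised ones included ENST00000619342.1 (1.11, with at most 30.7 counts in siControl and at least 59.6 in siGAR1) and ENST00000608416.5 (1.00), and for the remaining raised transcript the log2 difference was 1.06. In siDyskerin the first raised transcript had 65.5, 66.5 and 69.3 counts and the first lowered one 374, 311 and 294.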

How the results depend on the processing

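Among the genes picked by the naming rule, 107 passed. Their direction held under all alternatives, and 65 of the 107 also stayed past the threshold under each. Genes given outside the rule were not counted here. With all 9 libraries 266 genes were raised and 312 lowered by at most 2-fold. These counts were 411 and 541 with 1 transcript per gene, 535 and 685 with DESeq2, 152 and 205 with length-scaled TPM counts, and 534 and 720 with no count filter. With only 6 libraries in the fit 171 were raised, and 463 with the GC offset. Leaving out 1 library gave 117 to 208 raised and 136 to 275 lowered, lowest without siGAR1 replicate 1 (raised also without siControl replicate 3). Above 2-fold, 22 (length-scaled TPM) to 88 (no filter) genes were raised and 66 lowered with no filter. Without 1 library 23 to 34 were raised and 11 to 21 lowered, 11 without siGAR1 replicate 2. ATF4 list genes lowered (11) were 17 with DESeq2 and 8 to 12 without 1 library. P53 targets raised (5) were 2 with 6 libraries, 8 with DESeq2, 3 with length-scaled TPM, 8 with the GC offset and 1 to 3 without 1 library, so no leave-one-out fit kept all 5. NF-kB members raised (5) numbered 4 to 6 without 1 library and 5 to 7 under the other alternatives. Histones lowered (12) were 7 with 6 libraries and 5 (without siGAR1 replicate 1) to 11. G1/S genes lowered (6) were 11 with 1 transcript per gene, 2 with 6 libraries, 14 with DESeq2, 2 with length-scaled TPM, 12 with no filter and 1 to 6 without 1 library. The share of genes at which siGAR1 replicate 3 departed was 0.367% at a mean log2 CPM of at least 5. Without 1 library NOP10 ranged from -0.015 (without siControl replicate 3, a change of sign) to 0.097, and GAR1 stayed between -2.81 and -2.60. The cause of these shifts was not tested. Equal replicate numbers did not deviate together between siControl and siGAR1 (correlations of deviations -0.24, -0.03 and 0.03), the groups compared, but did between siControl and siDyskerin (0.54, 0.44 and 0.25). Between siGAR1 and siDyskerin these correlations were -0.004, 0.11 and 0.27 for replicates 1, 2 and 3. With a replicate block, 306 genes were raised and 357 lowered by at most 2-fold and 30 and 18 above, and 4 of the 107 genes no longer passed. Whether depth limited the calls among snoRNA genes was not tested.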

Other observations

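Outside the lists of the comparison, 16 of 2518 tested lncRNA genes passed, 14 raised and 2 lowered, against 284 raised and 327 lowered of 14175 protein-coding genes. Of 17 ephrin and ephrin receptor genes EPHA4 alone passed, with 549, 465 and 444 normalized counts in siControl, 1340, 1234 and 1161 in siGAR1 and 1594, 1625 and 1730 in siDyskerin. Of 14 nuclear-retained long noncoding RNA genes 0 passed with edgeR or DESeq2 (2 at an unadjusted p under 0.05), with a median log2 difference of 0.10.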
